A study of Mus musculus with 6 samples.

Results

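The genes described here encode the machinery that starts transcription by RNA polymerase II (Pol II): the subunits of the enzyme itself, the general transcription factors and the Mediator complex. Members were chosen by symbol alone. They are the genes named Polr2a to Polr2m, every gene whose symbol begins with Gtf2, or with Taf or Med followed by a digit, and Tbp, Tbpl1, Ercc2, Ercc3, Ccnc, Cdk8 and Cdk19. A gene was represented by its brightest probe set, the group of probes that reads a transcript, among those annotated with that symbol only. In this way 89 genes with 103 probe sets were found among the 35557 probe sets of the array. Of these 89 genes, 88 passed the intensity filter and were tested, out of 17145 tested genes.

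RNA was measured in cells of NIH/3T3, a permanent fibroblast line derived from mouse embryos, on Affymetrix Mouse Gene 1.0 ST arrays. The cells stably carried an HA-tagged mouse RPB1, the largest subunit of Pol II. In 3 samples this RPB1 was wild type, and in the other 3 it was 8KR. The tail of RPB1 is built of repeats, only some of which have a lysine at position 7. In 8KR, arginine replaces each of these lysines, so that those positions cannot be acetylated. All cells of both groups were grown in DMEM with bovine calf serum and 2 µg/ml of α-amanitin, a toxin that blocks Pol II. The labels call the samples of a group biological replicates but do not say whether a group came from 1 clone or from separately transfected populations, so p-values measure only the spread between these samples. Because the arrays read bulk RNA, fewer cells with a transcript and less of it in each cell cannot be told apart.

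Pol II cannot find a promoter on its own. TFIID, made of the TATA-binding protein TBP and its TAF partners, marks the core promoter, TFIIA and TFIIB stabilise it there, TFIIF escorts the polymerase, and TFIIE and TFIIH open the DNA. Mediator, built of head, middle and tail modules and a detachable kinase module, bridges transcription factors bound at enhancers and the polymerase at the promoter. Most of these genes are expressed in nearly all tissues, while a few encode variants restricted to particular tissues.

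The fibroblast label was checked against markers. All 10 fibroblast markers listed were above a log2 intensity of 5 (wild type means 6.63 to 12.1), while of the markers of endothelial, epithelial, immune, neuronal and skeletal muscle cells no more than 1 per list was. Of the fibroblast markers, Col3a1 and Sparc fell, each by 0.52 on the log2 scale, and the part of this in the results below was not tested. Medians of the 6 arrays lay between 4.49 and 4.54, and arrays correlated at 0.982 to 0.984 within a group and at 0.975 to 0.978 between groups over probe sets, which share probe chemistry and normalization.

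In 8KR cells, 3 of the 88 genes passed the test, at a limma adjusted p under 0.05 over all probe sets tested. Polr2m, which encodes the Pol II-associated protein also known as Gdown1, and Med28, a Mediator subunit grouped here with the head, fell. Gtf2f2, which encodes the small subunit of TFIIF, rose. The share called was 3.41% of the members and 5.39% of all tested genes, which were not matched to the members in intensity. By direction, 1 member was called higher, against 2.33% of all genes, and 2 were called lower, against 3.06%. Every one of these 3 calls was lost when any 1 of the 6 arrays was left out, when 0 members passed, 11 to 17 had an unadjusted p under 0.05 in limma, and 1.59% to 1.71% of all genes were called. The call of Gtf2f2 was also lost without the intensity filter (limma adjusted p = 0.0593). With an ordinary linear model per probe set those of Gtf2f2 and Med28 were lost (adjusted p = 0.0501 and 0.0506). With the filter raised to a group mean above 5, 4 of 82 tested members were called, beside 17.6% of 9882 tested genes.

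The upstream sequences are shown for the members with a call. Promoter windows came from RefSeq (build GRCm38.p6), which matched 76 of the 89 members, and the first listed start of a gene was used. The 150 bases before the start are printed 5′ to 3′ on the strand of the gene, with capitals marking every match to the motifs searched. Polr2m (chr9:71485984-71486133, minus strand, the first of 2 listed starts), Gtf2f2 (chr14:76010866-76011015, minus strand) and Med28 (chr5:45520079-45520228, plus strand) read as follows.
Polr2m: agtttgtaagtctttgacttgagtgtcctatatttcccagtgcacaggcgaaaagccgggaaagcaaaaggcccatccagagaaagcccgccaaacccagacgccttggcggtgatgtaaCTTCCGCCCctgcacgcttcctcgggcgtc
Gtf2f2: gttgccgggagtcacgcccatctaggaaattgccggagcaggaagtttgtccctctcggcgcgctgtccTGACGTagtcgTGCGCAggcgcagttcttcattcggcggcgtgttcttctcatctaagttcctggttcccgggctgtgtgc
Med28: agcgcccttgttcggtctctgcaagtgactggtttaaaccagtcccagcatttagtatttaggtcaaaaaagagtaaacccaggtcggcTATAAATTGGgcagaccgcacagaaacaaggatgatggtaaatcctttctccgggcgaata

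The motifs searched on both strands were the TATA box TATAAA, the CCAAT box CCAAT, the GC box GGGCGG, the CRE half-site TGACGT, the ETS core CGGAAG and the NRF1 half-site TGCGCA. In the Polr2m window a GC box and an ETS core overlapped on the opposite strand, their leftmost bases lying 27 and 30 bases before the start. The Gtf2f2 window held TGACGT at 81 bases and TGCGCA at 70 bases before the start. In the Med28 window TATAAA, at 61 bases, overlapped a CCAAT box on the opposite strand, at 56 bases. The 3 windows thus shared none of the 6 motifs.

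Over the 250 bases before the start, GGGCGG was in 63.2% of the 76 matched members and in 32.9% of all 27025 promoters. The other motifs that contain CG were likewise in a larger share of members, with CGGAAG in 32.9% against 13.8%, TGCGCA in 21.1% against 6.66% and TGACGT in 14.5% against 6.56%. CCAAT was in 35.5% of members and 34.5% of all promoters, and TATAAA in 15.8% and 13%. The base composition differed in the same windows, with a median GC content of 59% in members and 52% in all promoters. The set of all promoters was not limited to tested genes, nor matched to the members in expression or kind of gene. These are matches of letters, not measured binding.

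The subunits of Pol II are taken first. Polr2a encodes RPB1, the subunit that was tagged and mutated, and its probe set reads the resident gene and the introduced construct together wherever their sequence is the same. Polr2a log2 intensities were 12.10, 12.11 and 12.09 in wild type cells and 12.12, 12.13 and 12.13 in 8KR cells. The groups did not overlap, but the log2 difference, 8KR minus wild type, was 0.03 (SE 0.07), with a 95% interval of -0.13 to 0.19 and a limma adjusted p of 0.860. Where the probes lie was not examined, so how much of the signal comes from the resident gene and how much from the construct is not known.

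Polr2m stood apart from the rest of the enzyme. Gdown1, its product, is not one of the core subunits but joins a fraction of Pol II and makes it depend on Mediator. Polr2m log2 intensities were 8.99, 8.91 and 9.01 in wild type cells and 8.50, 8.52 and 8.58 in 8KR cells, so that every 8KR array lay below every wild type array. The mean went from 8.97 ± 0.05 to 8.53 ± 0.04 (SD, n = 3 arrays each), and Polr2m fell by 0.44 on the log2 scale (SE 0.07, 95% interval -0.61 to -0.26, limma adjusted p = 0.0311), to 0.738 times the wild type level. The gene lies in a shared transcription unit with Myzap, whose own log2 difference was 0.13 with a limma adjusted p of 0.786.

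The 12 core subunits showed no common direction. With the probe sets used, 6 of these 12 had a positive and 6 a negative log2 difference. Their median was -0.02 and their range -0.25 to 0.41, and none was called. Polr2i, which encodes RPB9, a subunit that aids start site choice and proofreading, was the only core subunit with an unadjusted p under 0.05. Its log2 intensities were 8.10, 7.79 and 8.20 in wild type cells and 8.23, 8.58 and 8.52 in 8KR cells. The groups did not overlap, but the closest arrays were nearly level, and the log2 difference of 0.41 (95% interval 0.06 to 0.77) had a limma adjusted p of 0.194.

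Polr2g and Polr2d encode RPB7 and RPB4, which form the stalk of the enzyme. Their log2 differences were -0.25 (95% interval -0.52 to 0.02) and 0.14 (-0.20 to 0.49), and without wild type replicate 3, the lowest array, that of Polr2d was 0.00526. Polr2b, for RPB2, which forms the catalytic cleft with RPB1, had a log2 difference of -0.10 (-0.28 to 0.08). Polr2c and Polr2j, for the assembly pair RPB3 and RPB11, were at -0.05 (-0.26 to 0.16) and -0.07 (-0.26 to 0.13). All these intervals include 0. The other probe set of Polr2c gave 0.15 (limma adjusted p = 0.680), so the sign of Polr2c depended on the probe set.

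The subunits that Pol II shares with Pol I and Pol III are encoded by Polr2e, Polr2f, Polr2h, Polr2k and Polr2l. Their log2 differences were -0.13, -0.13, 0.12, 0.24 and 0.02, all with intervals that include 0. The other probe set of Polr2h gave -0.00257. Polr2k, for RPB12, a small zinc-binding subunit, rested on 1 array. Its 8KR log2 intensities were 5.64, 5.65 and 6.65, against 5.43, 5.89 and 5.90 in wild type cells. Without 8KR replicate 3 the log2 difference of Polr2k turned from 0.24 to -0.10. The annotation gives a further probe set to both LOC100862456 and Polr2k. That probe set was brighter, with log2 means of 9.42 in wild type and 9.09 in 8KR cells. Its groups did not overlap, and its log2 difference was -0.33 (limma adjusted p = 0.169).

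**Figure D1:**
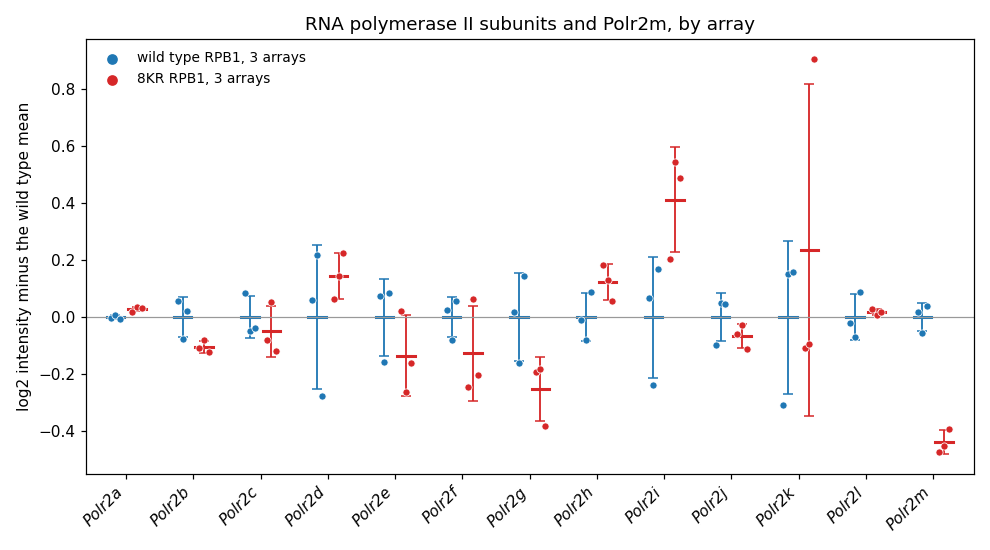
Log2 intensity of each Pol II gene on each array, with the gene's wild type mean subtracted (vertical axis), for 3 wild type arrays (blue) and 3 8KR arrays (red). Thick bars are group means and error bars are 1 SD. The 8KR arrays of Polr2m lie about 0.44 below its wild type mean with little spread, whereas the 8KR mean of Polr2k is lifted by a single array.

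Among the general factors, TBP and TFIID gave no call. Tbp had log2 intensities of 6.10, 6.04 and 6.04 in wild type cells and 6.10, 6.13 and 6.23 in 8KR cells. These groups all but touched, and the log2 difference was 0.09 (95% interval -0.09 to 0.28). Its paralog Tbpl1, which serves a subset of promoters that TBP does not, had a log2 difference of 0.11 (-0.14 to 0.37).

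Of the TAFs of TFIID, 16 were tested, 8 with a positive and 8 with a negative log2 difference, and their median was 0.01. Taf10 and Taf6, which encode histone-fold subunits of TFIID, had the smallest p among them. Taf6 log2 intensities were 7.93, 7.79 and 7.86 in wild type cells and 7.66, 7.51 and 7.57 in 8KR cells, without overlap, for a log2 difference of -0.27 (95% interval -0.47 to -0.08, limma adjusted p = 0.135). Taf10 gave -0.20 (-0.36 to -0.03, limma adjusted p = 0.178) with the probe set used and 0.05 with its other probe set, so its direction depended on the probe set. Whether either probe set reads a near-identical copy of Taf10 was not tested. Taf13 also changed sign, at 0.11 with the probe set used and -0.28 with the other. The TAF with the largest difference in size, Taf5, a scaffold subunit, was at -0.52, but its interval ran from -0.99 to -0.06 and its groups overlapped.

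The dimmest members, all variants of general factors, were near the lower end of detection. Taf7l, a TAF7 paralog of germ cells, had log2 means of 2.90 and 2.91 in wild type and 8KR cells, did not reach the filter at 3.0 and was not tested. Taf7l2 was at 3.14 and 3.21, and Gtf2a1l, a TFIIA subunit of germ cells, at 3.52 and 3.30, with a log2 difference of -0.22 (95% interval -0.46 to 0.03). At such levels a probe set may report little beyond background.

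Several proteins bear a TAF name but belong elsewhere: TAF1A to TAF1D to the SL1 complex of Pol I, TAF5L and TAF6L to the SAGA coactivator, and TAF15 to the FET family of RNA-binding proteins. None of these 7 was called, and 5 had a positive log2 difference, Taf1d among them with the probe set used. Taf15 log2 intensities were 9.11, 9.10 and 9.02 in wild type cells and 9.29, 9.33 and 9.29 in 8KR cells, without overlap, for a log2 difference of 0.23 (95% interval 0.06 to 0.40, limma adjusted p = 0.144). Taf1a was at -0.44 (-0.81 to -0.08, limma adjusted p = 0.173).

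The value given for Taf1d hung on the probe set. The annotation gives it 9 probe sets, of which 4 hold identical values, and their log2 differences ran from -0.59 to 0.21. The brightest, which stands for the gene by the rule but is not annotated with a RefSeq mRNA, gave 0.05. The only probe set so annotated gave -0.41 (limma adjusted p = 0.0629). Whether the others read Taf1d or different RNAs was not tested. Of the 89 members, 7 had several probe sets and 82 had 1, and none of the probe sets that the rule passed over was called.

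Of TFIIA, TFIIB, TFIIE and TFIIF, 8 genes were tested, 4 with a positive and 4 with a negative log2 difference. TFIIF, a heterodimer that binds Pol II and carries it to the promoter, had both its genes on the positive side. Gtf2f2, for its small subunit RAP30, had log2 intensities of 6.86, 7.00 and 6.98 in wild type cells and 7.44, 7.36 and 7.33 in 8KR cells, and all 8KR arrays lay above all wild type arrays. From a mean of 6.94 ± 0.08 to one of 7.38 ± 0.06 (SD, n = 3 arrays each), Gtf2f2 rose by 0.43 on the log2 scale (SE 0.08, 95% interval 0.24 to 0.62, limma adjusted p = 0.0418), or 1.35-fold.

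Gtf2f1, for the large subunit RAP74, is given beside its partner although it was chosen after its values were seen. Its log2 intensities were 8.15, 8.20 and 8.00 in wild type cells and 8.49, 8.51 and 8.33 in 8KR cells, again without overlap. The log2 difference of Gtf2f1 was 0.33 (95% interval 0.10 to 0.55), which did not pass the test at a limma adjusted p of 0.124. The intervals of both TFIIF genes exclude 0 and overlap each other, and whether the pair differ was not tested.

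TFIIE, a heterodimer that recruits TFIIH, had both its estimates on the other side of 0. Gtf2e2, for its small subunit, had log2 intensities of 7.83, 7.71 and 7.80 in wild type cells and 7.43, 7.47 and 7.49 in 8KR cells, with no overlap. The log2 difference was -0.32 (SE 0.07, 95% interval -0.49 to -0.14, limma adjusted p = 0.0738), short of the threshold here and past it under 3 of the alternative settings. Gtf2e1, for the large subunit, was at -0.19 with a wide interval of -0.78 to 0.39. TFIIB, the bridge between TBP and the polymerase, is encoded by Gtf2b, which was at 0.11 (-0.12 to 0.33), and the TFIIA genes Gtf2a1 and Gtf2a2 were at 0.04 (-0.14 to 0.21) and -0.20 (-0.40 to 0.01).

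TFIIH, which unwinds DNA at promoters and in nucleotide excision repair, had 6 genes tested by the symbols used, 5 of them with a positive log2 difference (median 0.12) and none called. Ercc2, for the helicase XPD, had log2 intensities of 5.69, 5.60 and 5.44 in wild type cells and 5.82, 6.07 and 6.03 in 8KR cells. The groups did not overlap, and the log2 difference was 0.40 (95% interval 0.13 to 0.66, limma adjusted p = 0.110). Ercc3, for the translocase XPB that opens the promoter, was at 0.01 (-0.30 to 0.33), and Gtf2h5, for the smallest core subunit, at 0.22 (-0.04 to 0.48). The kinase arm of TFIIH, which phosphorylates the tail of RPB1, is made by Cdk7, Ccnh and Mnat1, none of which was called, with log2 differences of 0.27, 0.20 and -0.04.

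The TFII-I family shares the Gtf2 prefix but acts at particular genes rather than in general initiation. Gtf2i was at 0.24 (95% interval 0.01 to 0.47, limma adjusted p = 0.244), and Gtf2ird1 and Gtf2ird2 were at 0.01 and 0.02. The values of the last 2 are too close to 0 for their sign to be read.

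**Figure D2:**
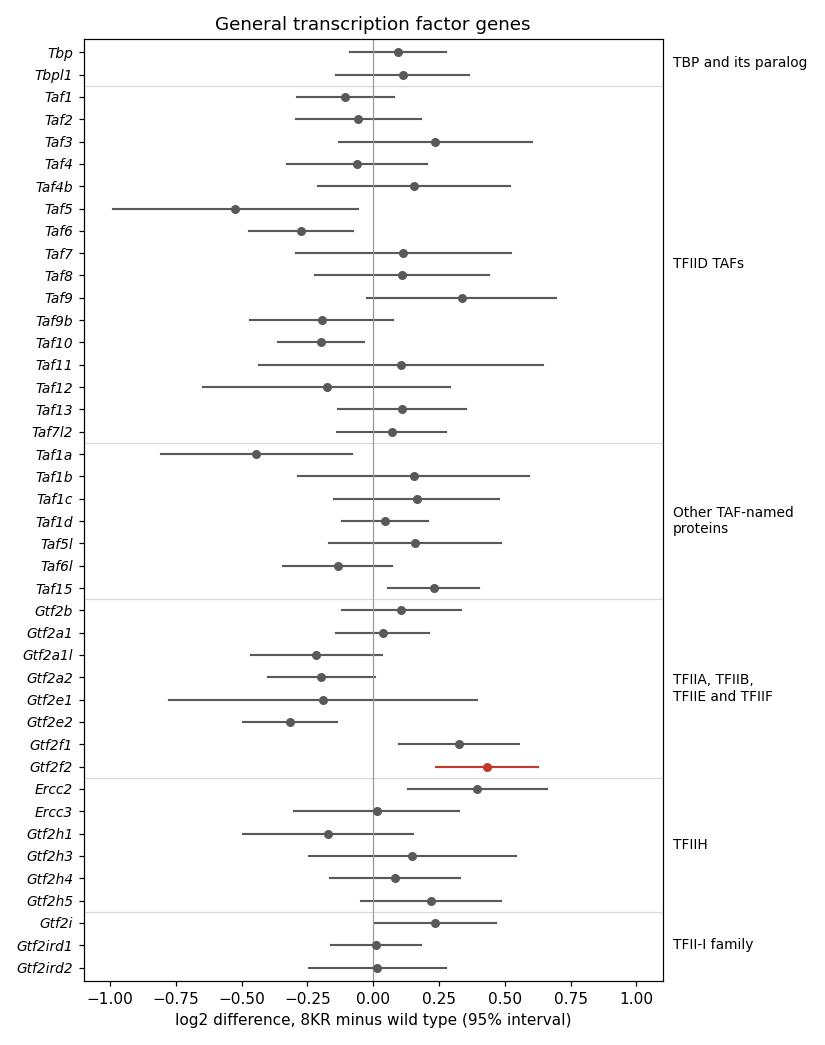
Log2 difference (8KR minus wild type, horizontal axis) of each tested general factor gene with its 95% interval from limma, grouped by complex. Gtf2f2 in red is the one gene called, at 0.43, and Taf5 has the lowest estimate, at -0.52, with an interval from -0.99 to -0.06.

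In Mediator, 33 genes were tested, 16 with a positive and 17 with a negative log2 difference, for a median of -0.01. Med28 was the one called. Its log2 intensities were 8.07, 8.14 and 8.31 in wild type cells and 7.60, 7.60 and 7.64 in 8KR cells, so the lowest wild type array was well above the highest 8KR array. From 8.17 ± 0.12 to 7.61 ± 0.03 (SD, n = 3 arrays each), Med28 fell by 0.56 on the log2 scale (SE 0.09, 95% interval -0.77 to -0.34, limma adjusted p = 0.0272), to 0.680 times the wild type level, the largest difference in size among the 88 genes.

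The head module contacts the polymerase. Of the 12 genes grouped with it here, which include Med27, Med28, Med29 and Med30, 8 had a negative log2 difference. Their median was -0.19, and other groupings of genes into modules were not tried. Med11, which pairs with Med22 in the head, had log2 intensities of 7.06, 6.68 and 6.78 in wild type cells and 6.26, 6.51 and 6.51 in 8KR cells, without overlap, and a log2 difference of -0.41 (95% interval -0.73 to -0.09, limma adjusted p = 0.157). Med22 itself was at 0.05 (-0.20 to 0.30). Med30 was at -0.39 (-0.70 to -0.08), Med17, the scaffold of the head, at -0.24 (-0.49 to 0.01), and Med20 on the other side of 0 at 0.28 (-0.12 to 0.68).

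The middle module had 6 of 8 genes with a positive log2 difference and a median of 0.14, and none was called. Med10 log2 intensities were 8.14, 8.01 and 8.11 in wild type cells and 8.26, 8.41 and 8.57 in 8KR cells, which did not overlap, for a log2 difference of 0.32 (95% interval 0.07 to 0.57, limma adjusted p = 0.158). Med1, through which nuclear receptors reach Mediator, was at 0.21 (0.02 to 0.40, limma adjusted p = 0.216). The head and middle medians had opposite signs, but no test was made between modules, because their genes are not replicates of a condition.

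The tail, where many activators bind, had 4 of 6 genes with a positive log2 difference and a median of 0.09. Med14, the backbone that joins the modules, had log2 intensities of 7.77, 7.66 and 7.69 in wild type cells and 7.85, 7.91 and 7.98 in 8KR cells, without overlap, and a log2 difference of 0.21 (95% interval 0.02 to 0.40, limma adjusted p = 0.204). Med23, a target of Ras-dependent activators, was at 0.22 (-0.05 to 0.48).

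The kinase module binds Mediator reversibly and keeps it from the polymerase. Its kinase genes Cdk8 and Cdk19 were at -0.01 (95% interval -0.24 to 0.23) and -0.06 (-0.34 to 0.21), and Ccnc, for their cyclin, at -0.09 (-0.39 to 0.20). Quantile scaling turned the sign of Cdk8, to 0.00907. Med12, which activates the kinase, had log2 intensities of 6.57, 6.59 and 6.63 in wild type cells and 6.75, 6.87 and 6.77 in 8KR cells, without overlap, for a log2 difference of 0.20 (0.02 to 0.38, limma adjusted p = 0.209). Its paralog Med12l was at -0.05, and Med13 and Med13l, which tether the module to Mediator, were at -0.05 and 0.08. All 7 kinase module intervals lay within 0.5 of 0 on the log2 scale.

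**Figure D3:**
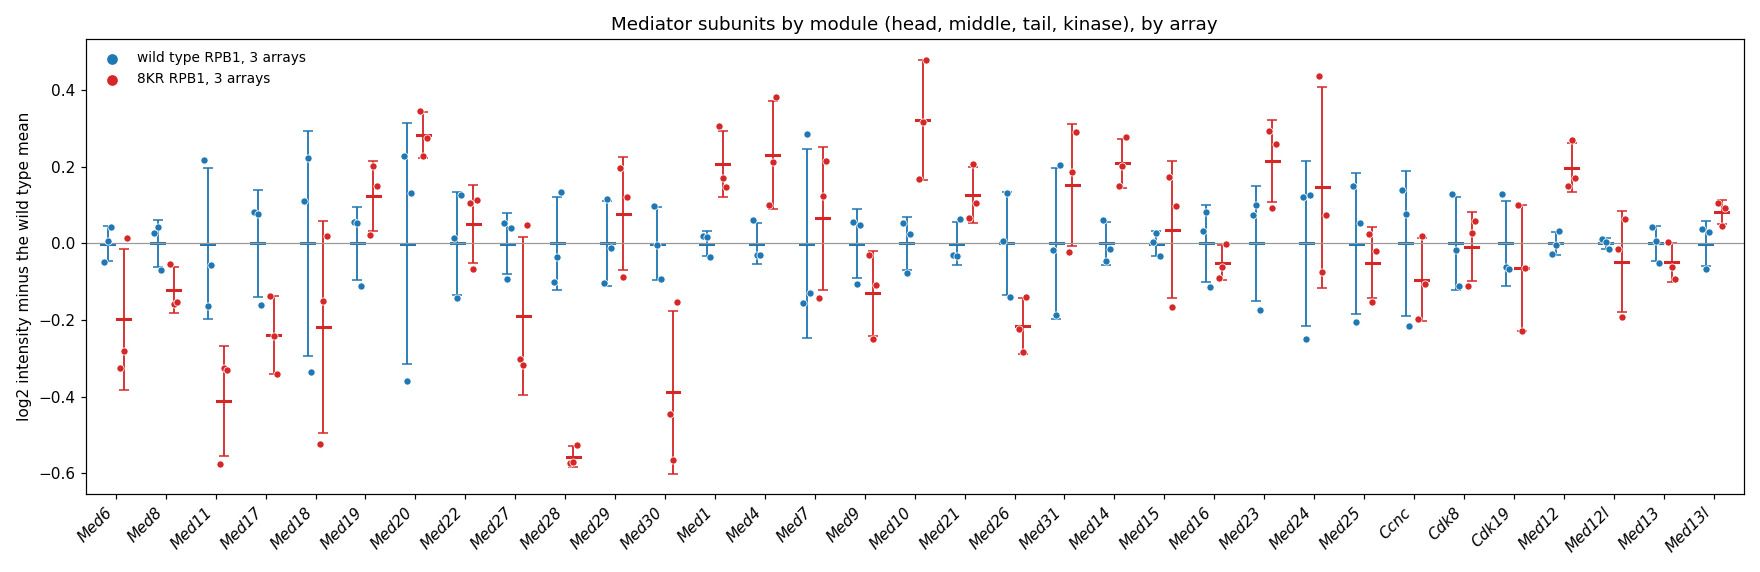
Log2 intensity of each Mediator gene on each array, with the gene's wild type mean subtracted (vertical axis), in the order head, middle, tail and kinase module. Blue points are 3 wild type arrays, red points 3 8KR arrays, thick bars group means and error bars 1 SD. Med28 has all its 8KR arrays more than 0.5 below its wild type mean.

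Across the complexes, differences were small and went in both directions. Of the 88 genes, 49 had a positive and 39 a negative log2 difference, with a median of 0.03, against 0.01 over all tested genes. The median size of the difference was 0.15 for members and 0.14 for all genes, again not matched in intensity. An unadjusted limma p under 0.05 with a higher value in 8KR cells was found for 10 members (11.4%), beside 10.9% of all genes. With a lower value it was found for 9 (10.2%), beside 11.0%. All 8KR arrays lay above all wild type arrays for 18 members (20.5%), where 15.0% of all genes did so. They lay below them for 13 (14.8%), where 14.7% did.

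The intervals show what these arrays could resolve. The 95% interval lay within 0.5 of 0 on the log2 scale for 63 members (71.6%), compared with 62.2% of all tested genes, and within 1, a doubling or halving, for 100% of members and 95.8% of all genes. A member with the median SE would have needed a log2 difference of 0.52 to be called, and 84 members one under 1. With 3 arrays in each group, differences smaller than these would mostly go uncalled.

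**Figure D4:**
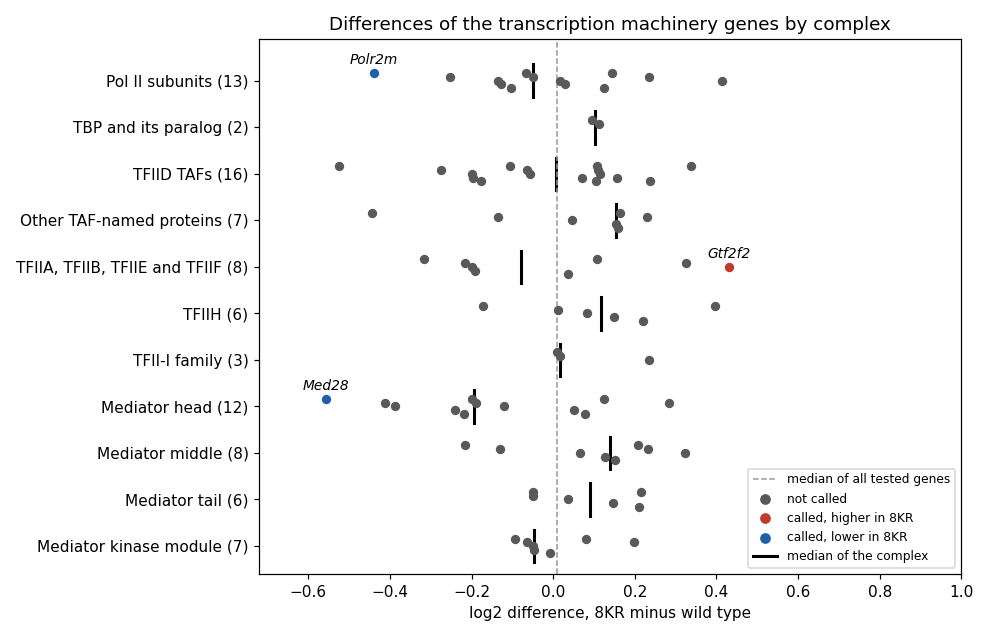
Log2 difference (8KR minus wild type, horizontal axis) of every tested member, 1 point per gene, by complex or module, with the number tested in brackets. Black bars are the median of each complex and the dashed line is the median of all tested genes, 0.01. The 2 TBP genes and the 3 genes of the TFII-I family all have values above 0, the other complexes have points on both sides of 0, and the head module's median is lowest, at -0.19.

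The genes beside the 3 called members on their chromosomes were read next, taking the 3 nearest tested genes on each side in the order of the RefSeq table. Over all tested genes, 51.8% had a positive log2 difference, an unadjusted limma p under 0.05 was found for 10.9% higher and 11.0% lower in 8KR cells, and 5.39% were called. Around Polr2m, 5 of 6 neighbours had a negative log2 difference, although those of Aqp9 and Cgnl1 were only -0.01 and -0.02, and 1 of them had an unadjusted p under 0.05. This was Adam10, a cell surface protease, which fell by 0.47. Around Med28, 5 of 6 were negative, 2 of them with an unadjusted p under 0.05, and Lcorl, for a DNA-binding protein, fell by 0.44. Around Gtf2f2, 4 of 6 were positive, 3 of them with an unadjusted limma p under 0.05, and 0 were called. The largest of these was that of Nufip1, which was at 0.49 with a limma adjusted p of 0.103.

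**Figure D5:**
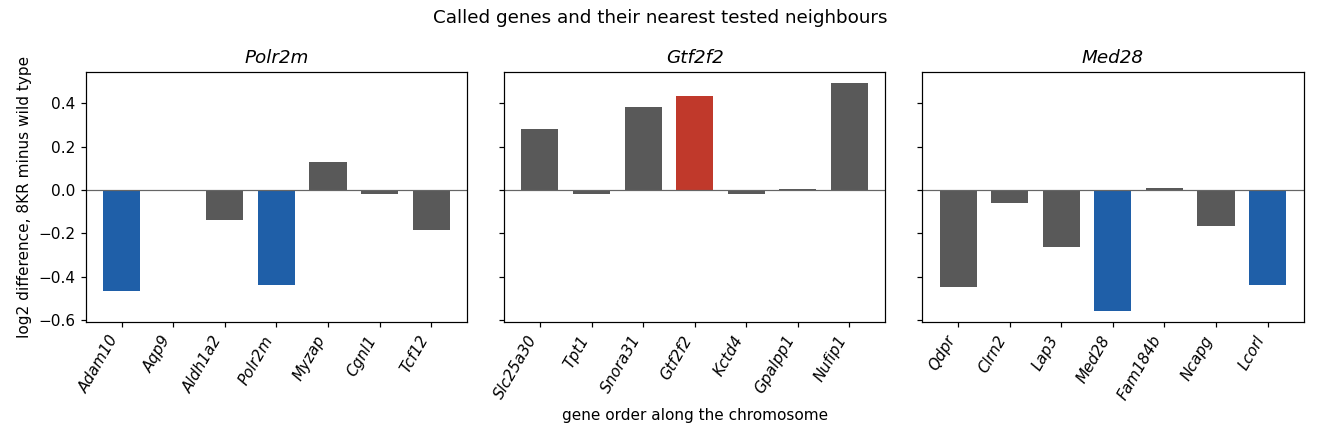
Log2 difference (8KR minus wild type, vertical axis) of each called member and its nearest tested genes in chromosomal order (horizontal axis, not to scale). Blue bars were called lower, the red bar was called higher and grey bars were not called. Adam10 and Lcorl are the called neighbours, at -0.47 and -0.44.

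Genes that work with this machinery were read from lists of related complexes. Of 15 factors that assemble or import Pol II, 1 was called, beside 5.39% of all tested genes. At an unadjusted limma p under 0.05, 2 were higher and 2 lower, beside 10.9% and 11.0% of all genes. The called gene was Pdrg1, for a subunit of the R2TP prefoldin-like assembly chaperone. Its log2 intensities were 7.94, 8.14 and 7.95 in wild type cells and 7.27, 7.20 and 7.30 in 8KR cells. Pdrg1 fell by 0.76 on the log2 scale (limma adjusted p = 0.0114). The median log2 difference of the list was 0.01.

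The other polymerases had 1 call each, beside 5.39% of all tested genes. Of 8 tested Pol I subunits, Polr1b, for the second largest subunit, rose by 0.44 on the log2 scale (limma adjusted p = 0.0291), from 6.75, 6.78 and 6.76 to 7.22, 7.24 and 7.14. Of 10 tested Pol III subunits, Polr3d rose by 0.69 (limma adjusted p = 0.0415), from 6.49, 6.13 and 6.20 to 7.10, 6.98 and 6.82. The arrays of the groups did not overlap in either gene, and the list medians were 0.15 and 0.01. With an unadjusted limma p under 0.05, 3 Pol I subunits were higher and 0 lower, and 3 Pol III subunits were higher and 2 lower. At that threshold 10.9% of all tested genes were higher and 11.0% lower.

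In the remaining lists limma called 0 genes. Unadjusted p-values under 0.05 are given here beside 10.9% of all genes higher and 11.0% lower. Of 9 Pol III initiation factors 1 had such a p, with a higher value in 8KR cells. Of 16 genes of SAGA, which shares subunits with TFIID and whose list includes the members Taf5l and Taf6l, 3 did, all higher. Of 4 regulators of TBP and coregulators of initiation, 3 did, with Btaf1 higher, at 0.30, and Drap1 and Sub1 lower. Drap1, which with its partner Dr1 represses initiation at TBP, had a log2 difference of -0.34 and a limma adjusted p of 0.0520, just short of passing. The medians of these lists were 0.06, 0.08 and -0.21.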

How the data were processed

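The deposited values were log2 intensities, normalized by the authors. Affymetrix Power Tools 1.12.0 stands in the submitters' processing notes. The normalization method and build are, in the sources used here, not given. Symbols are those of the platform annotation. Probe sets without a group mean above 3.0 were removed. All remaining probe sets (28543) were fitted with limma 3.58.1 under R 4.3.3, by lmFit and eBayes with 3 against 3 arrays and no covariates, followed by Benjamini-Hochberg adjustment over all of them and calls at an adjusted p under 0.05. The fit was tested on simulated data. Intervals are limma's, per gene and unadjusted.

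Members, lists and tests were chosen with earlier results of these data known. Genes named were all Pol II subunits, both TBP genes, the kinase module, called genes and their closest paralogs, the 2 smallest p of each complex, and the 3 brightest and 3 dimmest members. Others named (such as Gtf2f1, Taf5, Taf13, Taf1d and further subunits of each complex) were added after their values were seen. Neighbours were the 3 nearest tested genes on each side. Alternatives covered filter, scaling, variance model, array weights, replicate block, arrays left out, probe set choice and symbols. Array number limits precision. Figures were drawn with matplotlib 3.10.9.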

Additional observations from a re-analysis of the deposited data

How the results depend on the processing

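The 3 calls among members depended on the number of arrays and on the variance model. With each of the 6 arrays left out in turn, members called numbered 0 to 0 in all, 0 to 0 higher and 0 to 0 lower, the limma adjusted p ranged from 0.0806 to 0.107 for Polr2m, from 0.0965 to 0.129 for Gtf2f2 and from 0.0630 to 0.0960 for Med28, and their log2 differences stayed at -0.47 to -0.42, 0.39 to 0.46 and -0.61 to -0.49. With the replicate number as a block, 0 were called (0 higher, 0 lower), 13 had an unadjusted p under 0.05 and 0.367% of all genes were called. The labels do not say whether samples with the same number were handled together. Deviations of same-numbered arrays correlated at -0.01, 0.01 and -0.00, which cannot settle it. With an intensity trend in the prior variance 6 were called, 2 higher (Taf15 and Gtf2f2) and 4 lower (Polr2m, Taf10, Gtf2e2 and Med28), and 8.91% of all genes were. With no filter (Polr2m and Med28 called) and with an ordinary linear model per probe set (Polr2m and Taf10 called), 0 were called higher. Of all genes, 3.47% were called with no filter and 3.69% with the ordinary model. Filtering at a mean above 5, or adjusting over probe sets with a single symbol, called 4 members, adding Gtf2e2, while 17.6% and 9.55% of all genes were called. Quantile scaling, centring, array weights, averaged probe sets, current symbols and, chosen after seeing the data, probe sets with a RefSeq mRNA called 3. In these settings 5.18% to 5.61% of all genes were called.

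Signs turned in genes near 0: Polr2c to 0.0513 with averaged probe sets, and Gtf2ird2 to -0.00463 and Cdk8 to 0.00907 with quantile scaling. Centring subtracts the same amount from every gene, so that Polr2l (-0.0108) and Gtf2ird2 (-0.0117), just above 0 before, turned by construction. Leaving out 1 array gave ranges of -0.10 to 0.41 for Polr2k, -0.0172 to 0.0615 for Polr2l, -0.0312 to 0.109 for Gtf2ird2, -0.0645 to 0.0569 for Cdk8, -0.147 to 0.0175 for Cdk19 and -0.103 to 0.0257 for Med12l. The median over members stayed between 0.00 and 0.04. The cause of the other changes was not tested.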
